A study of Mus musculus with 8 samples.

Results

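Macrophages and the resident macrophages of the liver, the Kupffer cells, were followed through 32 of their transcripts in sorted mesenchymal cells of mouse liver. The genes were taken by symbol from lists of known markers, with earlier results of these data known: 5 are known mainly from Kupffer cells (Clec4f, Vsig4, Timd4, Cd5l and Marco) and 27 are shared by many macrophages and other myeloid cells. All 32 were among the 30395 genes listed, and all 32 were among the 16446 genes that reached at least 1 CPM (counts per 1000000 reads of the library) in at least 2 libraries. RNA had been sequenced from 2 sorted populations, stellate cells and Gli1+ peribiliary mesenchymal cells, each taken without injury or 5 d after bile duct ligation (BDL), which blocks the flow of bile. Every group, controls included, came from mice aged 8 weeks on a mixed C57BL/6 and SWR/J background that carried Gli1:CreER+/- and Ai9+/-. In such mice a drug-inducible Cre recombinase is expressed from the Gli1 locus, so that the red Ai9 reporter marks cells that expressed Gli1. Each of the 4 groups held 2 libraries, made by SMART-Seq2, which copies whole transcripts into cDNA and amplifies them by PCR. The sort gates were not given in the sources used here, nor was any drug used to induce Cre. The replicates are numbered but not described as separate animals, so a p-value reflects only how far libraries differed, a spread that may be technical.

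Kupffer cells sit in the liver sinusoids, where they clear microbes, spent red cells and debris from the blood, and they renew themselves largely within the tissue. When they are lost or the liver is injured, monocytes from the blood enter and become macrophages that at first lack the proteins typical of resident Kupffer cells. Both kinds depend on the receptor CSF1R and on the transcription factor PU.1, the product of Spi1, and both make complement C1q, lysozyme, Fc receptors and lysosomal proteases. Mesenchymal cells are not known for making most of these proteins.

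The libraries held 11261775 to 19180370 reads, and 3 reads, taken as the lowest level that counts can resolve, corresponded to 0.156 to 0.266 CPM. The label check held in every library: Gli1 was read at 2.39 to 14.9 CPM in the 4 Gli1+ libraries and at 0 to 0.0584 CPM in the 4 stellate libraries. Lrat, the enzyme that esterifies retinol in stellate cells, was at 1832 to 2784 CPM in stellate and 5.16 to 35.9 CPM in Gli1+ libraries. In bulk RNA, a library with fewer macrophages and one with less RNA per macrophage cannot be told apart. The 2 uninjured stellate libraries stood apart from each other in these genes, and calls of members that rest on them are also given without one or the other.

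The 32 genes together took 1.86% of all reads in uninjured stellate replicate 1 and 0.0891% in replicate 2. In the other 6 libraries the share lay between 0.248 and 0.576%. Replicate 1 held the highest CPM of any library for 29 of the 32 genes, and replicate 2 the lowest for 31 of 32, Timd4 being tied there at 0 reads with the second BDL stellate library. Slc40a1 was the only member whose lowest library was another one.

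Between these replicates, 31 of the 32 genes were at least 4-fold and 30 at least 16-fold higher in replicate 1, on the scale of CPM + 1. Of all 16446 genes, 9.42% and 2.29% passed the same folds in that direction. No member was 4-fold higher in replicate 2, as 7.18% of all genes were. In replicate 2, 5 members had 0 reads (Timd4, Cd163, Ptprc, Fcgr1 and Ms4a7), another 7 had 1 to 3 reads, and the C1q genes summed to 579 reads against 82546 in replicate 1. The remaining replicate pairs were closer: no member was 16-fold apart in any of them. At least 4-fold apart were Laptm5 and Cybb in uninjured Gli1+ cells, where 6.51% of all genes were so in favour of replicate 1 and 6.62% of replicate 2. In BDL Gli1+ cells it was Il1b alone, with 2.27% and 3.03% of all genes. In BDL stellate cells these were 7 genes, of which Clec4f, Vsig4, Timd4, Cd163, Folr2 and Il1b were higher in replicate 1 (2.47% of all genes) and Fcgr1 in replicate 2 (2.51%).

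Markers of other cells also differed between the uninjured stellate replicates. The 10 T and NK cell genes found summed to 39.6 CPM in replicate 1 and 0 CPM in replicate 2, where all 10 were at 0. The 7 B cell genes summed to 12.9 and 0.209 CPM, the 10 sinusoidal endothelial genes to 803 and 157 CPM, and the 8 hepatocyte genes to 198 and 64.6 CPM. The sum of the 9 stellate cell genes went the other way, with 13795 CPM in replicate 1 and 25893 CPM in replicate 2. Rgs5 alone made up 34.9% of that sum in replicate 2, and the median of the 9 genes was 1584 and 1826 CPM. Mitochondrial genes took 1.40 and 0.808% of CPM. Their part in the difference between the replicates was not tested.

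**Figure D1:**
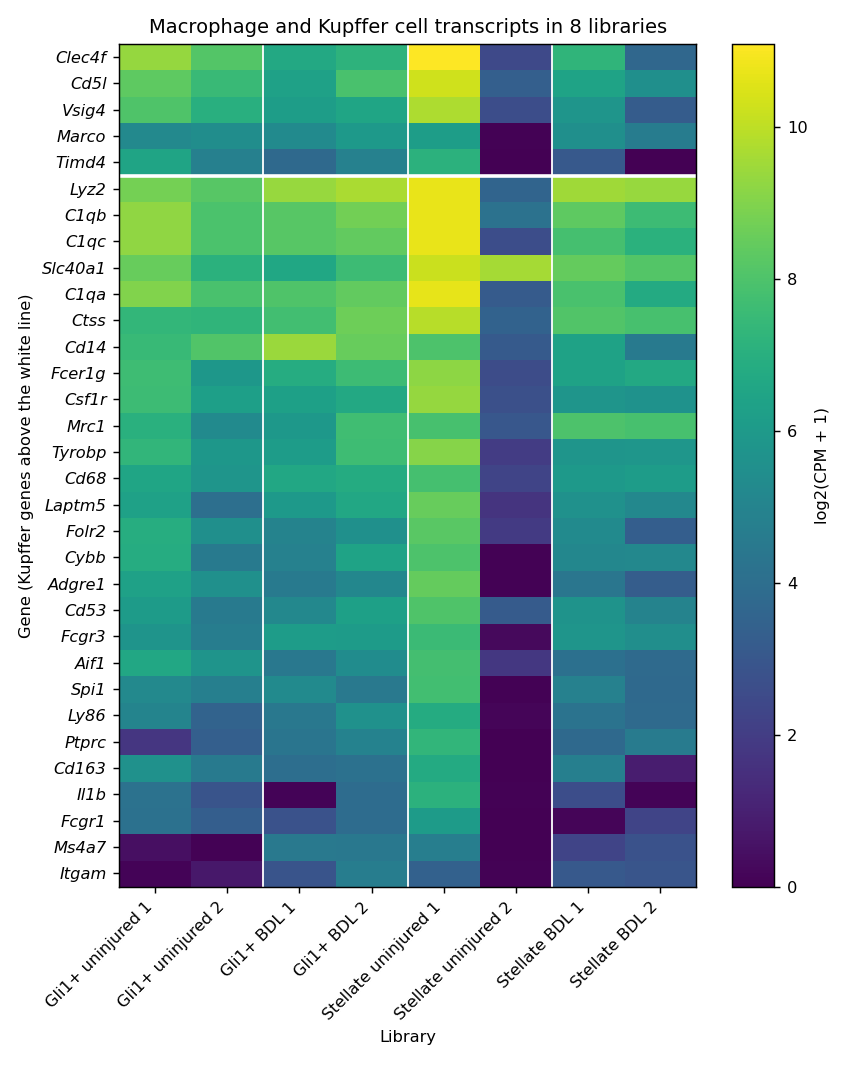
Heat map of log2(CPM + 1) of the 32 genes (rows, Kupffer genes above the white line, each block ordered by mean CPM) in the 8 libraries (columns, grouped by population and condition). Uninjured stellate replicate 1 is the brightest column for 29 genes, and replicate 2 is dark in all but Slc40a1, which had 772 CPM there.

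Reads of Kupffer genes were found in every library, though near the limit of counting in some, and Timd4 had none in 2. Clec4f, a galactose-binding lectin receptor that in mice is confined to Kupffer cells, had 644 and 279.9 CPM in uninjured Gli1+ cells (replicate 1, then 2, here and below) and 102 and 143 CPM after BDL. In stellate libraries it was at 2185 and 4.48 CPM without injury and at 153 and 12.1 CPM after BDL. Both BDL libraries of Gli1+ cells thus lay below both uninjured ones, while the stellate groups overlapped. Clec4f lies at chr6:83644542-83656187 on the minus strand of GRCm38 (mm10).

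Vsig4, the complement receptor CRIg that binds C3b-coated particles, was again highest in uninjured stellate replicate 1. Its CPM values were 261 and 126 in uninjured and 71.8 and 89.7 in BDL Gli1+ libraries, and 837, 5.11, 54.5 and 8.24 in the uninjured and then the BDL stellate libraries. Timd4, a phosphatidylserine receptor for apoptotic cells, was at 87.5 and 27.2 CPM in uninjured Gli1+ cells and 12.7 and 28.8 CPM after BDL. In stellate cells it was at 140.0 and 0 CPM without injury and 7.65 and 0 CPM after BDL, so that both second replicates lacked a read. These 0 reads allow up to 0.156 CPM in the uninjured and 0.255 CPM in the BDL library, by counting error alone.

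Cd5l, a secreted scavenger-receptor-like protein of tissue macrophages, was at 328 and 183 CPM in uninjured and 80.9 and 237 CPM in BDL Gli1+ libraries. Its stellate values were 1267 and 9.18 CPM without injury and 86.3 and 45.4 CPM after BDL, and uninjured and BDL libraries overlapped in both populations. Marco, a scavenger receptor for bacteria and particles, lay between 24.4 and 63.6 CPM in the 6 libraries outside the uninjured stellate pair. It was at 36.1 and 42.5 CPM in uninjured Gli1+ cells, 38.4 and 63.6 CPM in BDL Gli1+ cells and 44.5 and 24.4 CPM in BDL stellate cells, against 71.2 and 0.0521 CPM in uninjured stellate cells.

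Of the 27 general genes, those of complement C1q encode the recognition subunit of the classical pathway. C1qb was at 612 and 243 CPM in uninjured Gli1+ cells, 292 and 427 CPM in BDL Gli1+ cells, 1711 and 17.0 CPM in uninjured stellate cells and 321 and 195 CPM in BDL stellate cells. C1qa and C1qc, which lie with it in the cluster chr4:136880129-136898803, gave the same order of libraries at the top and bottom, with 1652 and 1685 CPM in the highest and 7.98 and 5.21 CPM in the lowest library. Lyz2, lysozyme of myeloid cells, was at 441 and 298 CPM in uninjured and 668 and 814 CPM in BDL Gli1+ libraries. In stellate cells it was at 1683 and 11.0 CPM without injury and at 724 and 658 CPM after BDL. The 4 BDL libraries thus held Lyz2 at 658 to 814 CPM, a narrower range than that of any C1q gene, whereas the 4 uninjured libraries spread from 11.0 to 1683 CPM.

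Per kilobase of exon, which allows genes to be ranked within a library, C1qb led in uninjured Gli1+ replicate 1 with 563 CPM per kb, and C1qa led in replicate 2 with 232 CPM per kb and in uninjured stellate replicate 1 with 1589 CPM per kb. In replicate 2 of uninjured Gli1+ cells the first 3 were close, with Lyz2 at 226 and C1qb at 224 CPM per kb. Lyz2 led in all 4 BDL libraries, with 507 and 619 CPM per kb in Gli1+ and 549.9 and 499.9 CPM per kb in stellate cells. Second there came Cd14 at 395 CPM per kb in BDL Gli1+ replicate 1 and C1qb at 393, 295 and 179 CPM per kb in the other 3. Uninjured stellate replicate 2 was led by Slc40a1 at 85.8 CPM per kb, ahead of C1qb at 15.6 CPM per kb.

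Csf1r, Spi1 and Adgre1 were each highest in uninjured stellate replicate 1 and lowest in replicate 2. Csf1r, the receptor of the macrophage growth factors CSF1 and IL-34, was at 194 and 76.5 CPM in uninjured and 77.2 and 102 CPM in BDL Gli1+ libraries, with 656, 5.47, 54.0 and 49.9 CPM in uninjured and then BDL stellate libraries. Spi1 was at 212 CPM in uninjured stellate replicate 1 and had a single read, 0.0521 CPM, in replicate 2, against 12.8 to 38.4 CPM in the other 6 libraries. Adgre1, the F4/80 antigen used to sort mouse macrophages, had 353 CPM and again a single read in that pair, against 81.2 and 46.0 CPM in uninjured Gli1+, 23.0 and 34.5 CPM in BDL Gli1+ and 19.6 and 8.75 CPM in BDL stellate cells. Both BDL Gli1+ libraries lay below both uninjured ones for Adgre1 and not for Csf1r or Spi1.

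Among receptors and their adaptors, Tyrobp and Fcer1g, the adaptors that carry activating signals from many myeloid receptors, were at 158 and 201 CPM in uninjured Gli1+ replicate 1 and at 57.0 and 57.1 CPM in replicate 2. After BDL they were at 68.7 and 117 CPM in Gli1+ replicate 1, 199 and 196 CPM in replicate 2, 54.3 and 84.2 CPM in stellate replicate 1 and 55.6 and 103 CPM in replicate 2. Both overlapped between uninjured and BDL libraries in each population. Fcgr3, a low-affinity IgG receptor, was at 52.4 and 25.0 CPM in uninjured Gli1+, 68.4 and 66.6 CPM in BDL Gli1+, 188 and 0.209 CPM in uninjured stellate cells and 54.5 and 43.5 CPM in BDL stellate cells. Fcgr1, the high-affinity receptor, stayed at or under 16.5 CPM outside uninjured stellate replicate 1, where it had 67.4 CPM. Reads of Fc receptor paralogs, like those of Lyz2 and Lyz1, may have been shared between copies in the counting.

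Of Cd163, Folr2 and Aif1, the first and the last were lower in both BDL than in both uninjured Gli1+ libraries. Cd163, the receptor for haptoglobin-bound haemoglobin, was at 48.3 and 22.6 CPM in uninjured and 15.2 and 16.5 CPM in BDL Gli1+ cells, and Aif1, the cytoplasmic calcium-binding protein IBA1, at 100.3 and 53.1 against 20.6 and 41.5 CPM. Folr2, a folate receptor of resident macrophages, overlapped, with 118 and 44.8 against 30.3 and 46.2 CPM. In BDL stellate libraries Cd163 was at 26.5 and 0.849 CPM, Aif1 at 16.2 and 13.3 CPM, and Folr2 at 39.2 and 8.92 CPM. The lysosomal genes Ctss, a protease of antigen processing, and Cd68 went the other way, with both BDL Gli1+ libraries above both uninjured ones. Ctss was at 163 and 154 CPM without and 211 and 395 CPM with BDL in Gli1+ cells, and Cd68 at 91.7 and 54.1 against 98.7 and 111 CPM.

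The rest were Laptm5 and Cd53, membrane proteins of blood cells, Ptprc, the pan-leukocyte antigen CD45, Cybb, the catalytic subunit of the phagocyte NADPH oxidase, Ly86, the partner of the Toll-like receptor homologue CD180, and the cytokine gene Il1b. Ptprc was at 2.40 and 9.13 CPM in uninjured and 18.6 and 28.9 CPM in BDL Gli1+ libraries, 156 and 0 CPM in uninjured stellate cells and 12.7 and 23.6 CPM in BDL stellate libraries. It was thus higher in both BDL than in both uninjured Gli1+ libraries, although the C1q genes were not. Il1b was at 137 CPM in uninjured stellate replicate 1, at most 17.1 CPM elsewhere, and a single read in BDL Gli1+ replicate 1, BDL stellate replicate 2 and uninjured stellate replicate 2. Csf1r, Itgam, Folr2 and Il1b share exon sequence with another annotated gene, for Csf1r, Folr2 and Il1b on the opposite strand, and the strand setting of the counting was not given in the sources used here.

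Each gene's log2(CPM + 1) profile was set against the mean profile of the other general genes over the 8 libraries. Without Slc40a1, Pearson's r ranged from 0.55 for Itgam to 0.99 for Ly86 with a median of 0.94, and 19 of 31 genes were over 0.9, while Slc40a1 gave -0.02. These are descriptions over n = 8 libraries that share the low uninjured stellate replicate 2. Over the 6 libraries outside the uninjured stellate pair, r ranged from -0.24 to 0.96 with a median of 0.63, only 2 of the 31 were over 0.9, and Slc40a1 gave 0.05. Much of the likeness over 8 libraries thus lay in that pair.

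The members' promoters were searched for the purine-rich GAGGAA motif bound by PU.1, on both strands of the 250 bases before the start. The members were chosen by name as macrophage genes, so their share with a motif does not bear on the difference between libraries. Any part of the motif in the levels was not tested. RefSeq (GRCm38.p6) gave a promoter for 25 of the 32 genes. GAGGAA was found in 15 of the 25 (60%), and in 23.1% of all 27025 promoters of the same length. The longer GAGGAAGT, which contains it, was in 1 of the 25 (4%) and in 2.44% of all, and the AP-1 motif TGACTCA in 1 (4%) and in 4.43% of all. Of the 5 Kupffer genes, 3 held GAGGAA. A match describes letters in a window and not a bound site. Shown are 2 Kupffer genes, Vsig4 with 2 matches (chrX:96293439-96293688, minus strand) and Timd4 with none (chr11:46810549-46810798, plus strand), and 2 general genes, C1qb as a member of high level (chr4:136886201-136886450, minus strand) and Itgam as the general gene least like the others apart from Slc40a1 (chr7:128062390-128062639, plus strand). Capitals mark GAGGAA or, where it lies on the other strand, TTCCTC, and each sequence is written 5′ to 3′ on the gene's strand.
Vsig4: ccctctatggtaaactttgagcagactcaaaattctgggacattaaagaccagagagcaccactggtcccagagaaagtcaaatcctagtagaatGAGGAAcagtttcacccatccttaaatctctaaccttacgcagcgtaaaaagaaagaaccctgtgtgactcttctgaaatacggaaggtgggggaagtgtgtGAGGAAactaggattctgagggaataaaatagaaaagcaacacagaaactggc
Timd4: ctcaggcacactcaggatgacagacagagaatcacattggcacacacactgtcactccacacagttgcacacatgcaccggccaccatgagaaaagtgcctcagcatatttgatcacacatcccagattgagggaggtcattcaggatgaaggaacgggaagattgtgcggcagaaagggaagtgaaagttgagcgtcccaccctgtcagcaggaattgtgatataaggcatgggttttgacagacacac
C1qb: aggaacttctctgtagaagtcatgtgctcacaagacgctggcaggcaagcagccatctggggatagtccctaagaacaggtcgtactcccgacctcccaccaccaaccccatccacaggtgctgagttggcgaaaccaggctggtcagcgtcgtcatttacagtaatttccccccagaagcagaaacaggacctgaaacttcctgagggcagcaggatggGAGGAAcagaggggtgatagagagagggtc
Itgam: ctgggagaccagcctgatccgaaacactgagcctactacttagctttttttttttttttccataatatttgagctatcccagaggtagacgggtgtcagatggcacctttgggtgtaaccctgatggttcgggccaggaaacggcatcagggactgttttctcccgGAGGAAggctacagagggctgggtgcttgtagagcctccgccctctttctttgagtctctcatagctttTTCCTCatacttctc

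Slc40a1, ferroportin, the iron exporter by which macrophages return iron from red cells, stood apart from the other members. It was at 361 and 135 CPM in uninjured Gli1+ and 97.6 and 195 CPM in BDL Gli1+ libraries, and at 1187 and 772 CPM in uninjured stellate cells and 356 and 282 CPM in BDL stellate libraries. In uninjured stellate replicate 2, where the C1q genes summed to 30.2 CPM, Slc40a1 alone made up 86.7% of the members' CPM, against 2.69 to 11.4% in the other 7 libraries. Its values in the 2 uninjured stellate libraries lay above those of all other libraries, and the 2 BDL stellate libraries overlapped with uninjured Gli1+ cells.

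Cd14, the co-receptor for bacterial lipopolysaccharide, was at 175 and 269 CPM in uninjured Gli1+ cells and 684 and 360.0 CPM in BDL Gli1+ cells. In stellate cells it was at 256 and 7.82 CPM without injury and 83.0 and 23.0 CPM after BDL. Its 2 highest libraries were thus the BDL Gli1+ libraries. Mrc1, the mannose receptor, is also made by sinusoidal endothelium, and it was at 131, 39.1, 58.7 and 204 CPM in the uninjured and then the BDL Gli1+ libraries. Its BDL stellate values of 255 and 233 CPM stood as high as the 233 CPM of uninjured stellate replicate 1, whereas the C1q genes summed to 5048 CPM there and to 781 and 440.2 CPM in the BDL stellate libraries. The 10 sinusoidal endothelial genes summed to 3136 and 2222 CPM in the BDL stellate libraries and to 157 to 1312 CPM in the other 6. Their part in the Mrc1 values was not tested.

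Ms4a7, a membrane protein of macrophages that is low in resident Kupffer cells, was at 0.355 and 0.0571 CPM in uninjured Gli1+ libraries, that is 4 reads and 1 read, and at 21.1 and 20.9 CPM after BDL. In stellate cells it was at 25.5 and 0 CPM without injury and 3.85 and 5.86 CPM after BDL. Itgam, the integrin CD11b of monocytes and granulocytes, was at 0.0888 and 0.628 CPM in uninjured Gli1+, 6.29 and 24.8 CPM in BDL Gli1+, 9.91 and 0.0521 CPM in uninjured stellate cells and 7.47 and 6.54 CPM in BDL stellate libraries. For both genes the BDL Gli1+ libraries lay clear of the uninjured ones.

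**Figure D2:**
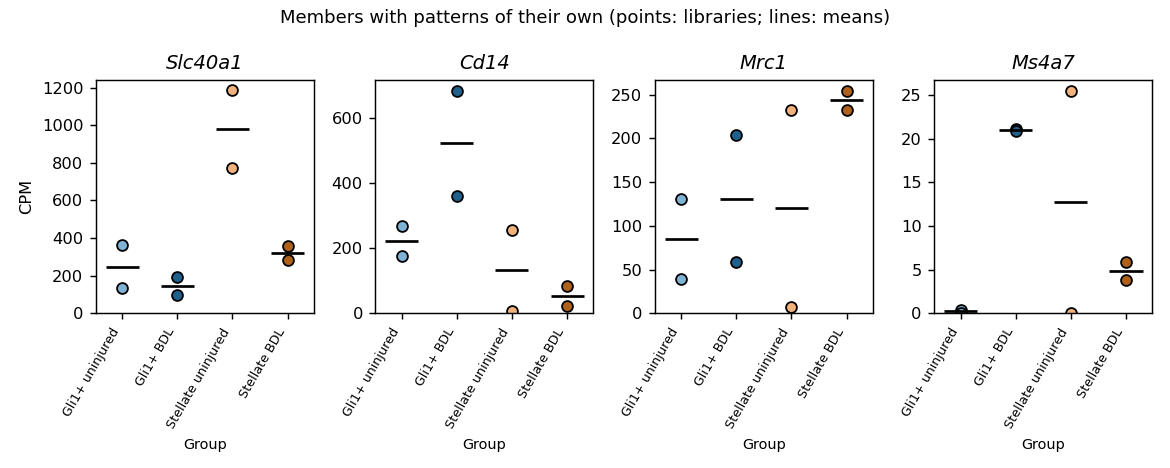
CPM of Slc40a1, Cd14, Mrc1 and Ms4a7 (linear axes from 0) in the 4 groups, with a point for each of 2 libraries and a line at the group mean. Slc40a1 is highest in both uninjured stellate libraries (1187 and 772 CPM), Cd14 in both BDL Gli1+ libraries (684 and 360.0 CPM), and Ms4a7 is near 0 in uninjured Gli1+ cells and at 21.1 and 20.9 CPM after BDL.

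The first comparison asked how uninjured Gli1+ cells differ from uninjured stellate cells. Slc40a1 was lower in Gli1+ cells, with a log2 fold change of -2.11 ± 0.52 (SE) and an adjusted p of 0.0344 by limma with Benjamini-Hochberg adjustment over all genes, the test used throughout. It was the only member of 32 that passed, 0 being higher, where 11.1% of all 16446 genes passed in either direction (8.06% higher and 3.02% lower in Gli1+ cells). It was also the only one at an unadjusted p under 0.05 (24% of all genes) and the only one whose groups did not overlap, where 45.7% of all genes did not overlap. The call was kept in 10 of 19 alternative settings and lost in 9, with adjusted p from 0.00174 to 0.220 and the same direction in all 19. It was lost without Gli1+ replicate 2 (log2 fold change -1.40, adjusted p = 0.165 by limma), without stellate replicate 1 (-1.80, adjusted p = 0.101) and without any 1 of the 4 BDL libraries (adjusted p from 0.0761 to 0.0787). DESeq2 called 2 members lower, Slc40a1 and Ms4a7, and 19.3% of the genes to which it gave an adjusted p, and edgeR called 0 members and 7.4% of all genes.

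The other 31 members did not differ beyond the spread of the stellate pair. The members' median log2 fold change was 1.11, against 0.32 for all genes, with 26 of 32 above 0 (62.2% of all genes), but the median turned to -1.43 with edgeR, which works on mean counts. It was 4.43 without stellate replicate 1, -2.36 without stellate replicate 2, 0.54 without Gli1+ replicate 1 and 1.70 without Gli1+ replicate 2. The summed CPM of the 5 Kupffer genes averaged 1008 ± 493 (SD, n = 2) in Gli1+ and 2260 ± 3169 in stellate cells, and that of the 27 general genes 3291 ± 1568 and 7504.5 ± 9380.0. Lyz2 had a log2 fold change of 1.35 ± 1.74 (SE) and an adjusted p of 0.694, and Clec4f 1.96 ± 2.29 with an adjusted p of 0.658, both by limma.

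Which stellate library was kept decided the outcome. Without stellate replicate 1, limma called 24 of the 32 members higher in Gli1+ cells, among them all 5 Kupffer genes, and 0 lower, where 8.38% of all genes were called higher and 2.46% lower. Without stellate replicate 2 it called 13 lower and 0 higher, where 2.93% of all genes were called lower and 7.22% higher. Lyz2 gave 4.92 ± 0.37 (adjusted p = 0.000362) in the first case and -2.21 ± 0.38 (adjusted p = 0.0111) in the second, as log2 fold changes by limma. In each case the lone stellate library was assumed to vary like the other groups.

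**Figure D3:**
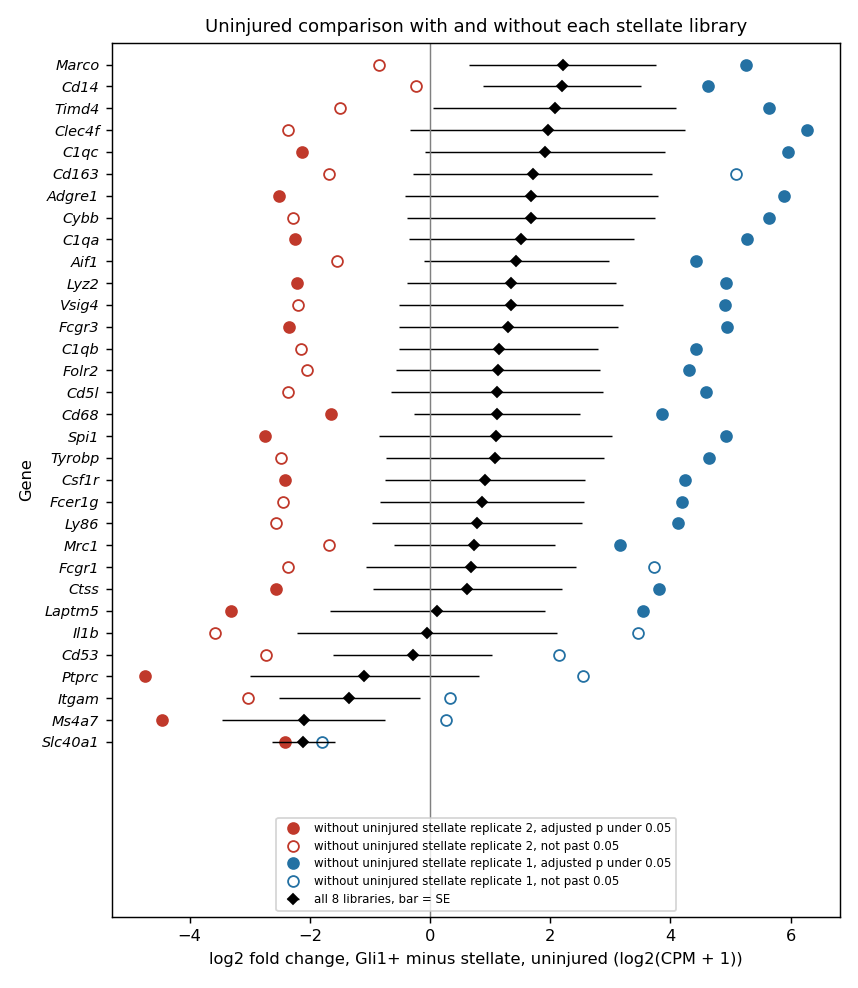
Log2 fold change of Gli1+ against stellate cells in uninjured liver (horizontal axis, log2(CPM + 1) scale) for each of the 32 genes (rows), with all 8 libraries (diamonds, bars give the SE) and without one or the other uninjured stellate library (circles, filled where the limma adjusted p is under 0.05). Without replicate 1, 24 genes are called higher, and without replicate 2, 13 are called lower.

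After BDL, where both stellate libraries held 31 or more of the 32 transcripts, 0 of the 32 members passed the limma test between Gli1+ and stellate cells, while 6.8% of all genes did. At an unadjusted p under 0.05 there were 2, Cd14 and Slc40a1 (19.6% of all genes). EdgeR called 0 (3.78% of all genes), and DESeq2 called 1, Cd14, with 10.9% of the genes to which it gave an adjusted p. Of the 32 log2 fold changes, 30 were above 0, as were 60.4% of those of all genes. Both Gli1+ libraries were above both stellate libraries for 16 of 32 (34.8% of all genes) and below for 2, Mrc1 and Slc40a1 (19% of all genes). The median log2 fold change of the members was 0.82, against 0.23 for all genes. It was 1.25 and 0.47 without Gli1+ replicate 1 or 2 of this comparison and 1.09 and 0.50 without stellate replicate 1 or 2, and 24 to 30 members were then above 0. Cd14 had a log2 fold change of 3.47 ± 1.31 (SE) and an adjusted p of 0.179 by limma.

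The spread of the uninjured stellate pair entered this test too, since all 8 libraries shared 1 estimate of the error. Without both uninjured stellate libraries, the SE of Cd14 was 0.59 and its adjusted p was 0.0102 by limma, with the same fold change, and Cd14 was then the 1 member called (5.45% of all genes were called higher). The same call was made without replicate 1 alone (5.31% of all genes called higher) and without replicate 2 alone (5.28%). Among the 16 were the C1q genes C1qa and C1qc, with log2 fold changes of 0.91 ± 1.87 and 0.86 ± 2.0, while C1qb and Lyz2 overlapped between the populations.

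The BDL response of Gli1+ cells was compared next. By limma 0 of 32 members passed, and so did 0% of all 16446 genes. DESeq2 called 1 member, Ms4a7, and 2.68% of the genes to which it gave an adjusted p, a share near that of the members, and edgeR called 0 members and 0% of all genes. At an unadjusted p under 0.05 limma had 2 (11% of all genes), Ms4a7 (log2 fold change 4.20 ± 1.35, adjusted p = 0.257) and Itgam (3.37 ± 1.17, adjusted p = 0.301). The groups did not overlap for 8 members that were higher after BDL (25.1% of all genes) and 5 that were lower (16.2% of all genes), which are shares close to the background. The higher ones were Cd14, Cd68, Ctss, Fcgr3, Itgam, Lyz2, Ms4a7 and Ptprc, and the lower ones Clec4f, Vsig4, Adgre1, Aif1 and Cd163. The median of the members was -0.09, against 0.12 for all genes, and its sign hung on single libraries. It was 0.46 and -0.58 without uninjured replicate 1 or 2 and 0.52 and -0.39 without BDL replicate 1 or 2. Leaving out the uninjured stellate libraries, each or both, again gave 0 calls of members and 0% of all genes.

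In stellate cells, 0 of 32 members passed the limma test of BDL against uninjured, where 0.225% of all genes did, and edgeR also called 0 (0.377% of all genes). DESeq2 called 1, Slc40a1, and 6.49% of the genes to which it gave an adjusted p. Slc40a1 was also the 1 member at an unadjusted p under 0.05 by limma, as 12% of all genes were (log2 fold change -1.59 ± 0.52, adjusted p = 0.264) and the 1 whose groups did not overlap. Its BDL libraries were the lower ones, as they were for 12.2% of all genes. The median of the members was 0.30, against 0.19 for all genes, and it turned to -2.07 with edgeR. It was 3.74 and -3.11 without uninjured replicate 1 or 2 and -0.02 and 0.52 without BDL replicate 1 or 2. Without uninjured stellate replicate 1, 11 members were called higher after BDL (1.25% of all genes), and without replicate 2, 7 were called lower (0.188% of all genes), so that the direction again followed the library kept. C1qa and C1qc were called higher in the first case and lower in the second.

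For the difference between the BDL responses of the populations, limma called 0 of 32 members and 0.0122% of all genes, with 0 members at an unadjusted p under 0.05 (7.48% of all genes), and edgeR (0.0669% of all genes) and DESeq2 (2.56% of those given an adjusted p) called 0. The members' median was -0.18 with limma, against -0.12 for all genes, and 2.04 with edgeR, and it lay between -3.48 and 3.17 when single libraries were left out. Without uninjured stellate replicate 1, 2 members were called, C1qc and Lyz2, with a lower response in Gli1+ cells (0.182% of all genes were called lower). Without replicate 2 there were 0 (0.0365% of all genes).

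The Kupffer genes were then set beside the general genes of the same library, as a ratio of their summed CPM. Per 100 CPM of general genes, the Kupffer genes had 30.8 and 30.2 CPM in uninjured Gli1+ libraries and 9.22 and 12.9 CPM after BDL. In stellate libraries the ratio was 31.8 and 2.16 without injury and 11.2 and 3.78 after BDL. Uninjured stellate replicate 1 was thus above both uninjured Gli1+ libraries in the level of either set and within 2 units of them in the ratio.

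Slc40a1 made up most of the denominator in uninjured stellate replicate 2. Without Slc40a1, a change made after its values were seen, the ratio was 18.9 there, 34.8 in replicate 1, and 33.6 and 32.2 in uninjured Gli1+ libraries. After BDL it was 9.50 and 13.6 for Gli1+ cells and 12.7 and 4.28 for stellate cells. The 4 uninjured libraries then lay between 18.9 and 34.8 and the 4 BDL libraries between 4.28 and 13.6, with no overlap. The general sum of uninjured stellate replicate 2 was only 99.7 CPM without Slc40a1, against 2047 to 12950 CPM in the others.

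Both sums bear on the ratio. In Gli1+ cells the Kupffer sum was 1356 and 659 CPM without and 306 and 562 CPM with BDL, and the general sum 4400.1 and 2182 against 3323 and 4341 CPM. The Kupffer sums did not overlap between the conditions and the general sums did. In stellate cells after BDL the Kupffer sums were 346 and 90.1 CPM and the general sums 3091 and 2386 CPM, and both lay between the 2 uninjured libraries, at 4501 and 18.8 CPM and at 14137 and 872 CPM. Hepatocyte genes, read beside these as signs of other cells, summed to 64.6 to 1128 CPM in uninjured and 1287 to 12801 CPM in BDL libraries, without overlap. Their part in the ratio was not tested.

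**Figure D4:**
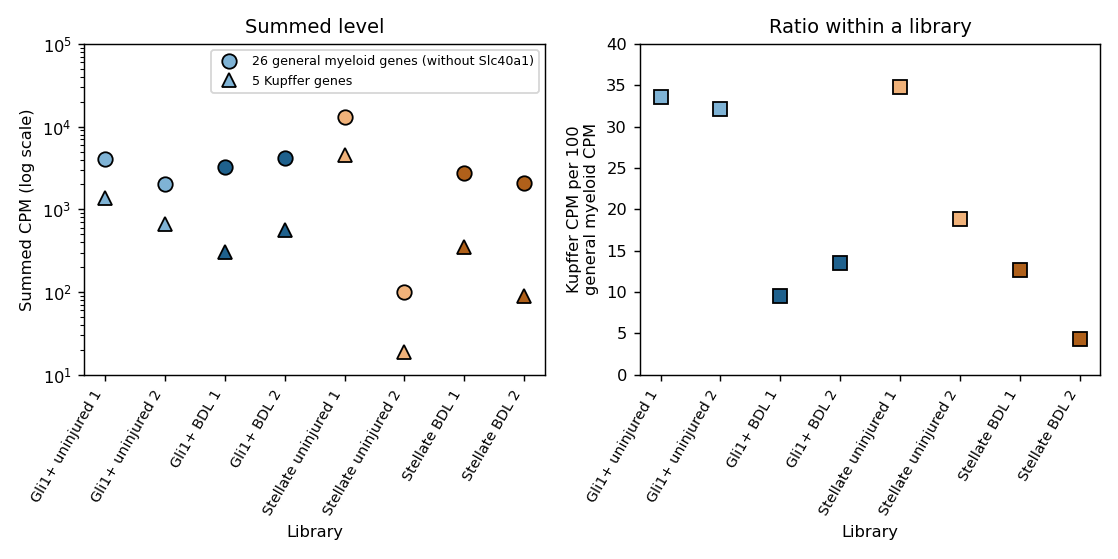
Left, summed CPM (log axis) of the 26 general myeloid genes without Slc40a1 (circles) and of the 5 Kupffer genes (triangles) in each library. Right, the Kupffer sum per 100 CPM of the general sum (linear axis from 0), which is 18.9 to 34.8 in the 4 uninjured and 4.28 to 13.6 in the 4 BDL libraries.

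To see which genes made this difference, each was set against the summed CPM of C1qa, C1qb and C1qc of its library, a denominator chosen after values were seen, so that what follows is description. Per 100 CPM of C1q, Lyz2 had 25.7 and 40.9 CPM in uninjured Gli1+, 33.3 and 36.4 CPM in uninjured stellate, 78.8 and 72.5 CPM in BDL Gli1+ and 92.7 and 149 CPM in BDL stellate libraries. All 4 BDL libraries were above all 4 uninjured ones, and the uninjured stellate replicates, far apart in level, were close in this ratio. Fcgr3, Itgam and Ly86 also had all BDL above all uninjured libraries, and Vsig4, Aif1 and Folr2 had all BDL below. Vsig4 had 15.2, 17.3, 16.6 and 16.9 CPM per 100 CPM of C1q in the uninjured Gli1+ and stellate libraries and 8.47, 7.99, 6.98 and 1.87 CPM in the BDL ones.

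That made 4 of the 29 other members higher and 3 lower, where 2.63% and 0.0547% of all 16443 other genes had no overlap in these directions. Summed C1q was 5048 CPM in uninjured stellate replicate 1 and 30.2 CPM in replicate 2. Genes that did not follow C1q thus spread widely in the ratio among uninjured libraries and could seldom lie without overlap. The shares of all genes in this paragraph are therefore not a like background for the members. In uninjured stellate replicate 2 many of these ratios rest on few reads: Itgam had 1 read, Ly86 2 and Fcgr3 4. Without that library, Cd68 and Ctss joined the higher and Clec4f, Timd4 and Adgre1 the lower genes, for 6 and 6 of 29, and the shares of all genes were 11.1% and 0.152%. Clec4f had 37.5, 38.4 and 43.3 CPM per 100 CPM of C1q in the other 3 uninjured libraries, 12.1, 12.7, 19.6 and 2.76 CPM in the BDL libraries and 14.9 CPM in uninjured stellate replicate 2. The Kupffer genes Cd5l and Marco overlapped either way, Marco with 1.41 to 5.84 CPM per 100 CPM of C1q in those 3 uninjured and 4.54 to 5.70 CPM in the BDL libraries.

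**Figure D5:**
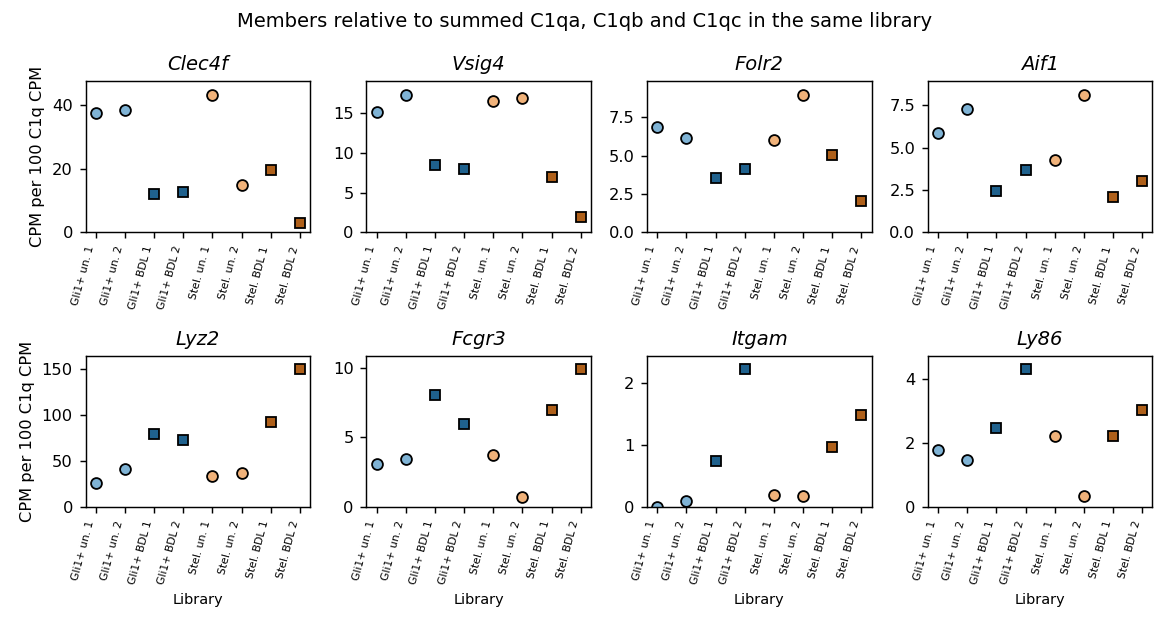
CPM of 8 members per 100 CPM of summed C1qa, C1qb and C1qc in the same library (linear axes from 0), with circles for uninjured and squares for BDL libraries. Vsig4, Folr2 and Aif1 are lower and Lyz2, Fcgr3, Itgam and Ly86 higher in all 4 BDL than in all 4 uninjured libraries, and Clec4f is lower once uninjured stellate replicate 2 (14.9) is left out.

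Other genes of the same cells and pathways were read from lists drawn up by name. Of 10 further Kupffer cell genes, 0 were higher and 1 was lower in uninjured Gli1+ than in stellate cells (8.06% and 3.02% of all genes). After BDL there were again 0 and 1 (4.44% and 2.36% of all genes). The 1 was Fcna, ficolin A of the lectin complement pathway, at 314 and 101 CPM in uninjured Gli1+ and 90.1 and 119.8 CPM in BDL Gli1+ libraries, against 5722 and 4250 CPM in uninjured stellate cells and 1488 and 947 CPM in BDL stellate libraries. Its log2 fold changes were -4.78 ± 0.52 without injury and -3.50 ± 0.52 after BDL (limma adjusted p = 0.00101 and 0.00630). When both uninjured stellate libraries were left out, 1 of the 10 was called higher and 1 lower after BDL (5.45% and 2.8% of all genes). Without uninjured stellate replicate 1, other genes of the 10 were called higher in uninjured Gli1+ cells, which they were not without replicate 2. Fcna was called lower in both cases. Like Slc40a1 it remained high in uninjured stellate replicate 2, where 4 of the 10 genes were at 0. Cfp, properdin of the alternative complement pathway, followed the members instead, with 823 CPM in stellate replicate 1 and 9.59 CPM in replicate 2.

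Ligands and attractants of macrophages were read in the same libraries. Il34, a ligand of CSF1R, was at 0.533 and 0.0571 CPM in uninjured Gli1+ and 20.9 and 1.497 CPM in BDL Gli1+ libraries, against 224 and 291 CPM in uninjured and 180.0 and 213 CPM in BDL stellate libraries. It was lower in Gli1+ cells without injury (log2 fold change -7.65 ± 0.89, limma adjusted p = 0.00142) and after BDL (-4.73 ± 0.89, adjusted p = 0.0164), and both calls were kept without either uninjured stellate library. Of the 6 tested ligands and chemokines it was the only one called in uninjured liver. After BDL Ccl12, a monocyte chemokine, was called higher in Gli1+ cells (limma adjusted p = 0.0214), at 20.1 and 4.31 CPM with 0 reads in the other 6 libraries. Ccl12 passed the filter on low values only through these 2 libraries. The filter thus selected it for the difference tested, and its call is given as description. Csf1, the other CSF1R ligand, was at 116 and 224 CPM in uninjured Gli1+ and 311 and 407 CPM in uninjured stellate cells and was not called.

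Partners of the members in signalling gave few calls. Of 8 Toll-like receptor and CD14 partners, Lbp, which hands lipopolysaccharide to CD14, was the only one called, higher in Gli1+ cells without injury (204 and 381 against 1.101 and 0.156 CPM) and after BDL (261 and 177 against 20.3 and 9.26 CPM), with limma adjusted p of 0.000243 and 0.00650. Both calls were kept without either uninjured stellate library. Of 9 genes of C1 partners and the IL-1 pathway, C1s1, a protease of the C1 complex, was higher and Il1r1, the IL-1 receptor, lower in uninjured Gli1+ cells. C1s1 lost its call without stellate replicate 1 or 2 (limma adjusted p = 0.0641 and 0.0720) and Il1r1 without replicate 2 (0.120). After BDL Il1rn, the IL-1 receptor antagonist, was higher and Il1r1 lower there. The 12 genes of signalling from ITAM receptors and the 5 NADPH oxidase partners of Cybb gave 0 calls by limma in any comparison of the 8 libraries. In uninjured Gli1+ cells the direction of calls among the 12 followed the stellate library left out. Some were called higher without replicate 1 and some lower without replicate 2. Of 10 transcription factors of macrophages, Irf8 and Nfatc1 were lower in uninjured Gli1+ cells (-2.85 ± 0.69 and -3.67 ± 0.93 on the log2 scale, limma adjusted p = 0.0326 and 0.0392) and 0 were called after BDL or between conditions with all 8 libraries. When both uninjured stellate libraries were left out, 1 of these 10 was called higher in Gli1+ cells after BDL (5.45% of all genes). In the same fit 1 of the 12 ITAM genes was called lower (2.8% of all genes). Irf8 lost its call without stellate replicate 1, and Nfatc1 without either one. Without replicate 1, others of the 10 factors were instead called higher in uninjured Gli1+ cells. With all 8 libraries, 6 of the 10 were above 0 in uninjured Gli1+ against stellate cells (62.2% of all genes).

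Genes of recruited monocytes and of scar-associated macrophages were read as well. Of 8 tested monocyte genes, Plac8, which stellate libraries held at 433 to 867 CPM, was lower in Gli1+ cells after BDL (log2 fold change -1.66 ± 0.28, limma adjusted p = 0.0105), and 0 were called in the other comparisons. The list did not share this direction: 5 of the 8 were above 0 after BDL (60.4% of all genes), with a median of 0.60, against 0.23 for all genes. In uninjured stellate replicate 2 Plac8 made up 98.7% of the CPM of the 10 monocyte genes found, 7 of which had 0 reads. Ccr2, the receptor by which monocytes leave the marrow, is given although it was chosen after its values were seen. It was at 0.355 and 0.856 CPM in uninjured Gli1+, 6.05 and 46.6 CPM in BDL Gli1+, 5.14 and 0.0521 CPM in uninjured stellate cells and 2.10 and 4.50 CPM in BDL stellate libraries. The list did not share this rise in Gli1+ cells: 4 of the 8 tested genes were above 0 after BDL (56.1% of all genes). Both BDL Gli1+ libraries lay above both uninjured ones for 3 of the 8 (25.1% of all genes) and below for 1 (16.2%).

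Of 6 scar-associated macrophage genes, Spp1, Cd9, Fabp5 and Gpnmb were higher in uninjured Gli1+ cells (8.06% of all genes), Spp1 also after BDL (4.44%). Spp1 and Gpnmb were higher in BDL than in uninjured stellate cells (0.225% of all genes). These calls were kept without either uninjured stellate library. Spp1, osteopontin, is also made by bile duct epithelium, and it was at 2140 and 259 CPM in uninjured Gli1+, 10259 and 5167 CPM in BDL Gli1+, 2.02 and 2.61 CPM in uninjured stellate cells and 177 and 743 CPM in BDL stellate libraries. Markers of cholangiocytes, the cells of that epithelium, summed to 1860 to 5230.0 CPM in Gli1+ and 1.15 to 13.9 CPM in stellate libraries, with 5 of 6 called higher in uninjured Gli1+ cells. Their part in the Spp1 values was not tested. Trem2, a lipid receptor of scar-associated macrophages that was likewise chosen after its values were seen, was not called, at 0.266 and 19.2 CPM in uninjured and 42.3 and 68.0 CPM in BDL Gli1+, 25.2 and 0 CPM in uninjured stellate cells and 28.7 and 26.3 CPM in BDL stellate libraries. In Gli1+ cells 4 of the 6 genes were above 0 after BDL (56.1% of all genes). Both BDL Gli1+ libraries lay above both uninjured ones for 2 of the 6 (25.1% of all genes) and below for 1 (16.2%).

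Outside all lists, the genes whose log2(CPM + 1) profile was most like the mean of the general members were sought among 7963 genes of at least 20 CPM on average. The first were Itgb2, the beta chain of the leukocyte integrins (r = 0.991, n = 8 libraries), Plek (0.981), Rgs1 (0.978), Tbxas1 (0.977) and Fabp7 (0.974). Itgb2 was at 24.4 and 14.2 CPM in uninjured Gli1+, 20.8 and 51.5 CPM in BDL Gli1+, 111 and 0 CPM in uninjured stellate cells and 14.9 and 10.02 CPM in BDL stellate libraries. Without the uninjured stellate libraries its r was 0.947 over 6 libraries, and that of Rgs1 was 0.759, so that part of the likeness lay in that pair. These values are descriptions and share the libraries with the members.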

How the data were processed

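The deposited files gave CPM per gene, each with a single column for its library under the header of normalized counts. The submitters' processing notes name FastQC, STAR 2.5.2b, featureCounts, DESeq2 and the build mm10, without their roles. Annotation release and strand setting were not given in the sources used here. Every value was a whole multiple of 1 read, so reads were recovered (100% whole within 0.1 read). Of 30395 identifiers, 30233 matched GENCODE vM21 on GRCm38, which gave symbols, coordinates and exon lengths.

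The main test was limma-trend (limma 3.58.1 in R 4.3.3) of log2(CPM + 1), a scale that understates changes of low genes. A single model with 4 group means was fitted to the 8 libraries, leaving 4 residual degrees of freedom, for genes that reached 1 CPM in 2 or more libraries. P-values were adjusted over all 16446 genes, with a threshold of 0.05. CPM carry no further scaling: over all genes the log2 fold changes had medians of 0.32, 0.23, 0.12, 0.19 and -0.12 in the 5 comparisons, and 0.14, 0.09, 0.08, 0.11 and -0.08 after TMM scaling. Alternatives were other pseudocounts, filters and scalings, edgeR 4.0.16, DESeq2 1.42.0 and limma-voom on the recovered reads, a replicate block and leaving out libraries (for the other lists and the likeness between profiles added after seeing the data). The fits were tested on simulated data with the same dispersion for every gene and library. The simulation held no pair made to differ like the uninjured stellate pair, so it does not bear on that case.

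The members and the other 18 gene lists were chosen with earlier results of these data known. All 32 members could be named. Of each other list, the text names up to 4 called genes per comparison and direction, by adjusted p, and the 2 of highest mean CPM, and it names Gli1 and Lrat as label checks. Of 187 list genes, 5 were not found. Counting floors cover counting error only, because PCR copies are not independent molecules.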

Additional observations from a re-analysis of the deposited data

How the results depend on the processing

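The counts of members called depended most on the uninjured stellate pair. In the uninjured comparison (1 called by limma on all 8 libraries) leaving out single libraries gave 0 to 24 calls, in the BDL comparison (0 called) 0 to 1, in the stellate BDL response (0 called) 0 to 11 and in the difference of responses (0 called) 0 to 2. Leaving out both uninjured stellate libraries, chosen after seeing the data, gave 1 in the BDL comparison. DESeq2 called 2, 1, 1 and 1 members in the uninjured and BDL comparisons and the Gli1+ and stellate responses, where it called 19.3%, 10.9%, 2.68% and 6.49% of the genes given an adjusted p. In the uninjured comparison edgeR (7.4% of all genes), no filter on low values (2.66%) and a fit of only the 4 libraries compared (0%) each called 0, and in the BDL comparison the fit of 4 libraries called 1 (9.04%). The cause of these changes was not tested. The ratio of Kupffer to general genes in uninjured Gli1+ cells was 30.5 on average and 32.9 without Slc40a1. With a pseudocount of 5, members at least 4-fold apart between replicates numbered 0 in BDL Gli1+ and 3 in BDL stellate cells. Of all values and settings compared, 92 kept their size or call and 24 did not, and for the call of Slc40a1 10 settings kept it and 9 did not. Many of the 92 were counts of 0 members that stayed at 0. In the BDL response of Gli1+ cells, for instance, limma on all 8 libraries called 0% of all genes, so such counts say little about stability. The replicate block gave 1, 0, 0, 0 and 0 calls in the 5 comparisons, as without it. Whether same-numbered libraries were paired was not given in the sources used here. Their deviations correlated at -0.112 to 0.112 between groups. The highest values were those between the populations after BDL (0.112) and without injury (0.0786). Such correlations cannot settle whether libraries were paired. With 2 libraries per group only large changes could pass, and in uninjured stellate replicate 2 the members at or under 3 reads, 12 of 32, could not be told from 0.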
